A study of Homo sapiens with 24 samples.

Results

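The genes that write, read and remove cytosine methylation were described across a methionine-dependent breast cancer line and its methionine-independent derivative. They were the 10 genes DNMT1, UHRF1, DNMT3A, DNMT3B, TET1, TET2, TET3, TDG, MBD4 and MBD2, taken by gene symbol from a count table of 26645 gene entries. All 10 were found and all 10 passed the filter on low counts that left 14741 genes to be tested. MDA-MB-468 (MB468) is a human triple-negative breast cancer line that needs methionine (Met) to proliferate, and MDA-MB-468res-R8 (MB468res-R8) is a single clone that grew out of MB468 kept for a long time in medium with homocysteine (Hcy) in place of Met. RNA was sequenced from both lines in Met+ medium (100 µM Met, the 0 h group) and at 0.5, 2 and 12 h after that medium was replaced by Met-Hcy+ medium with 370 µM DL-Hcy but no Met. Dialyzed serum and the other supplements were the same in all 8 groups, and each group had 3 libraries. No library was taken from cells held in Met+ medium until 12 h, so time in culture and the change of medium cannot be told apart. MB468res-R8 is 1 clone, so differences between the lines cannot be told apart from differences between any parent culture and a clone taken from it. The labels do not say that the 3 libraries of a group came from separate cultures, and p-values then measure only the spread between these libraries, which may be technical.

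DNA methyltransferases move a methyl group from S-adenosylmethionine, which cells make from Met, onto cytosines that precede a guanine (CpG). DNMT1 copies methylation onto new strands at replication, guided by UHRF1, which recognizes sites methylated on 1 strand, while DNMT3A and DNMT3B methylate unmarked sites. TET1, TET2 and TET3 oxidize methylated cytosine, TDG cuts out the oxidized bases so that base excision repair can restore cytosine, and both TDG and MBD4 remove the thymine left where a methylated cytosine has lost its amino group. MBD2 and MBD4 hold methyl-CpG-binding domains, and MBD2 brings the NuRD deacetylase complex to methylated DNA.

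Library totals ran from 11713037 to 36402932 counts (median 20452797), and the lowest count of any of the 10 genes in any library was 131, for TET1. The ERCC spike-in RNAs took 0.201% to 0.303% of the reads. The library MB468 2 h replicate 2 stood apart in 1 non-coding RNA, RN7SK, with 8251 counts against at most 357 in the other 23 libraries. The epithelial keratin KRT8 (1005 to 2479 counts per 1000000 counts, CPM), the basal keratin KRT5 (1540 to 2783 CPM) and EGFR (2102 to 4278 CPM) were high in all libraries, and of the receptor genes PGR had at most 2 counts, while ESR1 (4.15 to 22.6 CPM) and ERBB2 (38.3 to 97.3 CPM) were read in all libraries. The leukocyte markers PTPRC and CD3E had at most 7 counts and the fibroblast collagens COL1A2 and COL3A1 at most 2. The monocyte marker CD14 was read at 21.2 to 159 CPM, and of the fibroblast list COL1A1 was read at 14.6 to 73.2 CPM. Both moved with the groups. CD14 was at 152 ± 7.19 CPM in MB468 and 49.5 ± 3.17 CPM in MB468res-R8 at 0 h and at 63.6 ± 6.83 CPM and 22.5 ± 1.36 CPM at 12 h (SD, n = 3), and the sum of the fibroblast list was 33.6 to 34.4 CPM and 54.7 to 73.4 CPM in the same lines at 0 h and 14.6 to 15.7 CPM and 29.3 to 38.4 CPM at 12 h. Their part in the results was not tested. The endothelial markers PECAM1, VWF and CDH5 stayed at or below 2.70 CPM.

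Levels of different genes were compared as RPKM, which divides CPM by the exon length in kilobases, as means over the 8 groups. DNMT1 was far above the other genes at 70.3 RPKM. MBD4 followed with 24.1 RPKM and MBD2 with 16.3 RPKM. UHRF1 (12.3 RPKM) and TDG (11.9 RPKM) lay close together and changed places between groups. TET3 averaged 4.56 RPKM, TET2 3.27, DNMT3B 2.77, DNMT3A 1.95 and TET1 1.45 RPKM. With the length of the longest transcript in place of all exons, TET2 (5.30) stood above TET3 (4.89) and TDG (18.3) above UHRF1 (14.7), so neither order is firm. DNMT1 made up 91.8% to 95.2% of the summed RPKM of the 3 methyltransferase genes in every group mean, and DNMT3A and DNMT3B shared the rest.

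In GRCh38, DNMT1 and UHRF1 both lie on chromosome 19 and DNMT3A and TET3 both on chromosome 2. MBD4 (chr3:129430947-129440179, minus strand) shares 279 bp of exon, 8.32% of its exon length, with IFT122 on the other strand. TDG (chr12:103965822-103988874, plus strand) shares 168 bp with a non-coding RNA of its own strand, TET3 390 bp with another, and DNMT1 83 bp with S1PR2. The library kit does not mark strand, so reads from any of these stretches cannot be assigned to 1 of the genes. The annotation also holds the copies TDGP1, DNMT3AP1 and TET1P1, with which reads of TDG, DNMT3A and TET1 may be shared.

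The upstream sequences of the TET genes differ in CpG content. The 250 bases before the first base of each gene in RefSeq (GRCh38.p14), all free of annotated exons and on the plus strand, are shown with every CpG in capitals. They lie at chr10:68560087-68560336 for TET1, at chr4:105145625-105145874 for TET2 and at chr2:73984660-73984909 for TET3.
TET1: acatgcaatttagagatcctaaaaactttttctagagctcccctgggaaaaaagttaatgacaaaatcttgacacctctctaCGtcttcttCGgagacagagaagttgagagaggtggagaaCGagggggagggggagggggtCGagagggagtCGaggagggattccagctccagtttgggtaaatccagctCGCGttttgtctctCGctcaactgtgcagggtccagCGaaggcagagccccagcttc
TET2: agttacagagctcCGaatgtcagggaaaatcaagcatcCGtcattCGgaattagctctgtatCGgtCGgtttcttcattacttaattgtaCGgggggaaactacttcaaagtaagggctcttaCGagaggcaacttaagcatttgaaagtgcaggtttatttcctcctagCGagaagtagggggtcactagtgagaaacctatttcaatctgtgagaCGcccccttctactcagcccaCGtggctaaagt
TET3: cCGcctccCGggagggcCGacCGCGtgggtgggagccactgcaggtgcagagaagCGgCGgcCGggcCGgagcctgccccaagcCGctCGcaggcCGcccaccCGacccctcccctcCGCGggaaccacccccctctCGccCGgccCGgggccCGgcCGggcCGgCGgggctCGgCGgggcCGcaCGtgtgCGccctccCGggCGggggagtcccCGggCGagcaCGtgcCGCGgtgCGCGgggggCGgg
TET1 had 9 CpG and TET2 10 in this window, close to the median of 11 over 35116 promoters of the same length, and TET3 had 37, more than 96% of them. The G and C content was 51.6% for TET1, 45.6% for TET2 and 84.0% for TET3. These counts describe the reference sequence, and methylation was not measured here. All 10 genes were matched to RefSeq, and the other 7 windows are not shown. They held 28 CpG for UHRF1, 26 for MBD4, 22 for TDG, 21 each for DNMT1, DNMT3A and MBD2, and 3 for DNMT3B. Annotated exons cover all 250 bases of the MBD4 window, 182 of DNMT1, 137 of TDG, 107 of DNMT3A and 71 of UHRF1. The windows of DNMT1, UHRF1 and DNMT3B lie inside the annotated span of the gene. Their counts therefore need not describe its outermost start. A relation between CpG content and the response of the genes was not tested.

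**Figure D1:**
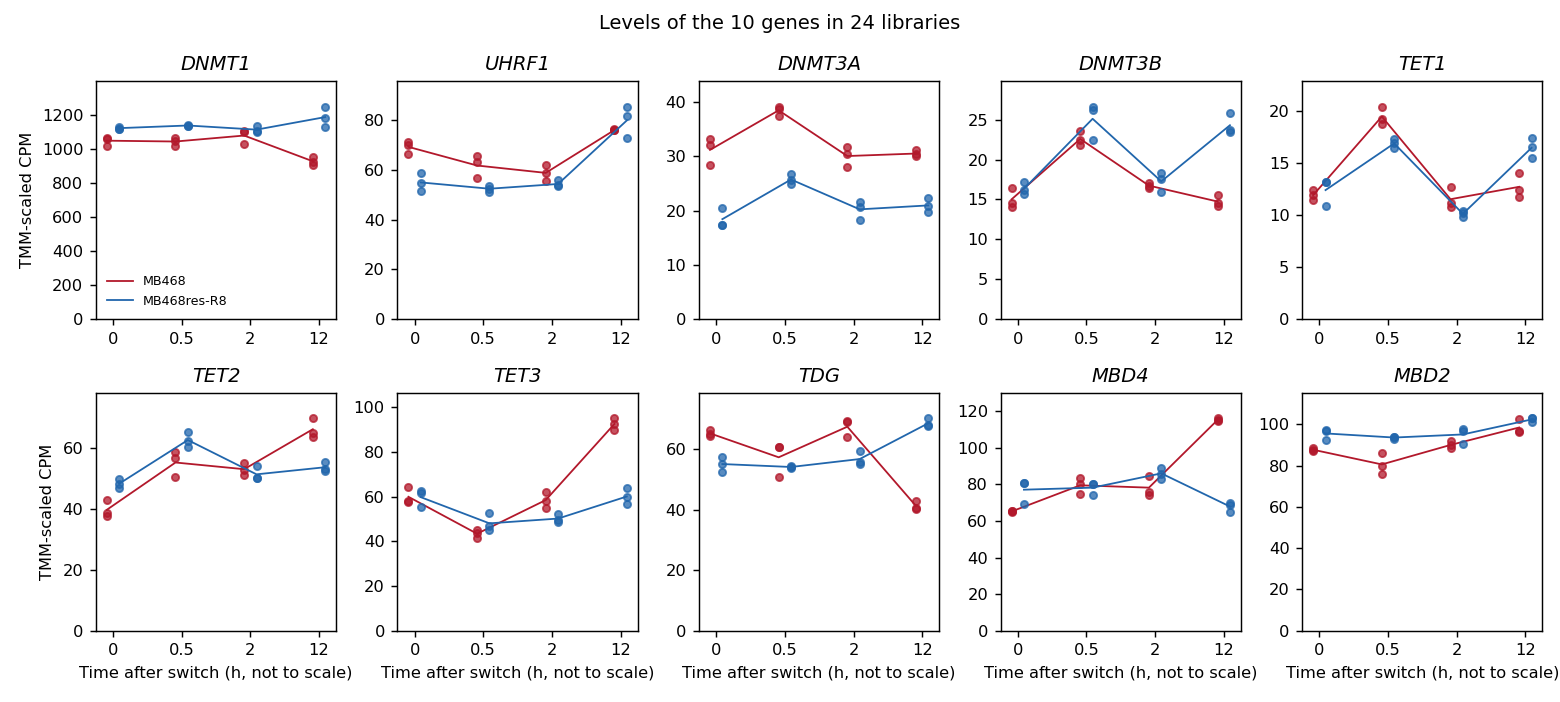
Level of each of the 10 genes in CPM scaled by TMM (y axis, from 0) against time after the medium switch (x axis, steps not to scale), with 1 point per library, lines through the group means, MB468 in red and MB468res-R8 in blue. At 0.5 h TET1, TET2, DNMT3A and DNMT3B lie above 0 h in both lines and TET3 below, and at 12 h the lines part in TDG (41.2 against 68.6 CPM) and MBD4 (115 against 67.9 CPM).

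Before the switch, the question was how a clone that grows with Hcy in place of Met differs from its parent in the same Met+ medium. DNMT3A, a de novo methyltransferase, was the gene that differed most. Its CPM was 32.0, 28.4 and 33.1 in the 3 MB468 libraries and 17.3, 20.5 and 17.4 in the 3 MB468res-R8 libraries. All MB468res-R8 values lay below all MB468 values, a log2 difference of -0.76 ± 0.08 (SE; adjusted p = 3.23e-11, edgeR quasi-likelihood test over all 8 groups, Benjamini-Hochberg over 14741 genes, as for all adjusted p-values here unless another test is named). UHRF1, the partner of DNMT1, was lower in MB468res-R8 (-0.33 ± 0.06, adjusted p = 4.47e-06), with 51.5 to 58.7 CPM against 66.3 to 71.3 CPM. TDG, the glycosylase of the TET pathway, was also lower (-0.25 ± 0.05, adjusted p = 0.000183). TET2 was higher by 0.28 ± 0.06 (adjusted p = 0.000127) and MBD4 by 0.25 ± 0.05 (adjusted p = 0.000173). In all, 7 of the 10 genes were called, beside 53.5% of all genes tested, with 4 higher (26.4% of all genes) and 3 lower (27.1%). The calls of DNMT1 (0.10 ± 0.04, adjusted p = 0.0227) and MBD2 (0.13 ± 0.04, adjusted p = 0.0165) were the weakest. The DNMT1 call was lost without MB468 0 h replicate 3 (adjusted p = 0.188), without MB468res-R8 0 h replicate 1 (0.0786) and without replicate 2 (0.0516), and the MBD2 call without MB468res-R8 0 h replicate 1 (0.111). DNMT3B (0.12 ± 0.08), TET1 (0.06 ± 0.09) and TET3 (-0.0026 ± 0.06) did not pass the test, and the 95% interval for TET3 ran from -0.12 to 0.12. Scaled to the spike-ins, the median of all genes in this comparison moved to -0.31, and DNMT1 (-0.21), TET2 (-0.03), MBD2 (-0.18) and MBD4 (-0.07) turned negative and were not called, DNMT3A, UHRF1 and TDG stayed lower, and TET3 was called lower (-0.32, adjusted p = 0.0347). The TMM values therefore say how a gene moved relative to the other genes.

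The 0.5 h libraries ask what changed directly after the switch. The de novo methyltransferase genes DNMT3A and DNMT3B and the oxidase genes TET1 and TET2 rose in both lines, and TET3 fell in both. TET1 read 12.4, 11.9 and 11.4 CPM at 0 h and 18.8, 20.4 and 19.2 CPM at 0.5 h in MB468. In MB468res-R8 it read 13.1, 10.9 and 13.2 CPM at 0 h and 17.3, 16.5 and 16.9 CPM at 0.5 h. The groups did not overlap in either line, and the log2 change was 0.70 ± 0.09 in MB468 (adjusted p = 2.44e-08) and 0.44 ± 0.09 in MB468res-R8 (adjusted p = 0.000102). TET2 rose by 0.48 ± 0.06 in MB468 (adjusted p = 1.16e-08), from 37.6 to 43.0 CPM up to 50.4 to 58.8 CPM. In MB468res-R8 TET2 rose by 0.38 ± 0.06 (adjusted p = 1.10e-06). TET3, the most abundant TET gene per kilobase of exon at 0 h, fell by 0.46 on the log2 scale in MB468 (SE 0.06, adjusted p = 7.30e-08), from 57.4 to 64.3 CPM down to 41.3 to 45.0 CPM. In MB468res-R8 it fell by 0.31 (SE 0.06, adjusted p = 6.64e-05). DNMT3B rose by 0.58 ± 0.08 in MB468 (adjusted p = 1.98e-07) and by 0.62 ± 0.08 in MB468res-R8 (adjusted p = 2.62e-08), and the 3 MB468res-R8 libraries moved from 15.6 to 17.2 CPM up to 22.5 to 26.7 CPM. DNMT3A rose by 0.31 ± 0.07 in MB468 (adjusted p = 0.000706) and by 0.48 ± 0.08 in MB468res-R8 (adjusted p = 2.45e-06). DNMT1, the maintenance enzyme, did not pass the test, at 0.02 ± 0.04 in MB468res-R8 and -0.01 ± 0.04 in MB468, and the 95% interval for MB468 ran from -0.08 to 0.07.

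At 0.5 h MB468 had 9 calls among the 10 genes, beside 33.9% of all genes, with 5 higher (17.6% of all genes) and 4 lower (16.4%). MB468res-R8 had 5 calls, beside 33.7%, with 4 higher (17.4%) and 1 lower (16.3%). The calls made in MB468 alone were MBD4 (0.29 ± 0.05, adjusted p = 3.38e-05), TDG (-0.17 ± 0.05, adjusted p = 0.0108), UHRF1 (-0.16 ± 0.06, adjusted p = 0.0290) and MBD2 (-0.12 ± 0.05, adjusted p = 0.0419). Without MB468 0.5 h replicate 3, which read lowest for all 4 of these genes in its group, TDG (adjusted p = 0.102), UHRF1 (0.140) and MBD2 (0.159) were no longer called. UHRF1 was also lost without MB468 0 h replicate 1 (0.0700) or 2 (0.103), and MBD2 without MB468 0 h replicate 1 (0.0553), 2 (0.0681) or 3 (0.0627) or MB468 0.5 h replicate 1 (0.0785). When the response of MB468res-R8 was compared with that of MB468, only MBD4 of the 10 genes was called at 0.5 h (-0.27 ± 0.08, adjusted p = 0.0357), beside 2.90% of all genes (1.20% higher, 1.70% lower), and that call was lost in 10 of the 12 fits that left out 1 library (adjusted p = 0.0502 to 0.173). The difference for TET1 was -0.26 ± 0.13 (adjusted p = 0.374), with a 95% interval from -0.51 to -0.0037. Scaled to the spike-ins, TET1 (0.49) and TET3 (-0.68) were still called, as were UHRF1, TDG and MBD2, in MB468, where the median gene moved to -0.20, and DNMT3A (0.09), DNMT3B (0.37), TET2 (0.27) and MBD4 (0.07) were not called. In MB468res-R8 the spike-in scaling kept the calls of DNMT3A (0.53), DNMT3B (0.67), TET1 (0.49) and TET2 (0.42) and lost TET3 (-0.25, adjusted p = 0.235). The spike-in share of reads was 0.214%, 0.277% and 0.288% in the 3 MB468res-R8 0.5 h libraries. Such spread within a group enters the scaled tests, so a lost call need not mean a changed estimate.

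The genes of mitosis moved at the same time. All 14 of 14 tested genes of a list of G2 and mitosis genes were higher at 0.5 h in MB468 (median log2 change 0.32, against 0.01 over all genes tested) and all 14 in MB468res-R8 (median 0.43, against -0.0022). The largest change in each line was that of TOP2A, the topoisomerase that untangles chromosomes (0.67 in MB468, 0.85 in MB468res-R8). The summed level of the list was 2404 to 2508 CPM at 0 h and 3186 to 3393 CPM at 0.5 h in MB468, and 2435 to 2576 CPM and 3493 to 3585 CPM in MB468res-R8. Of a list of 22 S phase genes, 2 were higher and 12 lower in MB468, and 3 were higher and 4 lower in MB468res-R8, beside shares of all genes of 17.6% higher and 16.4% lower in MB468 and 17.4% and 16.3% in MB468res-R8. The part of cell cycle composition in the changes of the 10 genes was not tested. In bulk RNA a change in the share of cells of a kind and a change per cell cannot be told apart. Among cofactors and partners of the TET enzymes, 5 of 8 tested genes were higher and 2 lower in MB468, and 5 were higher and 1 lower in MB468res-R8. CXXC4, a CXXC-domain partner of TET2, went from 1.87 ± 0.48 to 6.39 ± 0.21 CPM (SD, n = 3) in MB468, while MB468res-R8 went from 2.58 ± 0.34 to 9.66 ± 1.64 CPM, log2 changes of 1.77 and 1.88. OGT, a glycosyltransferase that binds TET proteins, rose by 0.56 ± 0.06 and 0.47 ± 0.06.

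At 2 h fewer of the genes differed from 0 h. In MB468, 3 of the 10 genes were called, beside 16.3% of all genes, with 2 higher (8.88%) and 1 lower (7.47%). TET2 was still up by 0.41 ± 0.06 (adjusted p = 1.47e-06), with 55.2, 52.8 and 51.4 CPM, and MBD4 by 0.27 ± 0.06 (adjusted p = 0.000410), with 74.4, 75.9 and 84.4 CPM against 64.8 to 65.5 CPM at 0 h. UHRF1 was down by 0.24 on the log2 scale (SE 0.06, adjusted p = 0.00264). Without the library with high RN7SK the values were 0.42 for TET2, 0.29 for MBD4 and -0.24 for UHRF1, all still called. TET1 (-0.05 ± 0.10), TET3 (-0.04 ± 0.06), DNMT3A (-0.04 ± 0.07) and DNMT3B (0.15 ± 0.09) did not pass the test against 0 h. In MB468res-R8 TET3 alone was called (-0.25 ± 0.06, adjusted p = 0.00612), beside 4.37% of all genes (2.52% higher, 1.85% lower), and the call was lost without MB468res-R8 2 h replicate 2 (adjusted p = 0.0524). TET1 in MB468res-R8 read 10.4, 9.84 and 10.2 CPM, below all 3 libraries of 0 h, but missed the threshold (-0.30 ± 0.09, adjusted p = 0.0597). Without MB468res-R8 0 h replicate 2, its lowest library at 0 h, it was called (-0.38, adjusted p = 0.0154). Between the lines, the response of TET2 differed at 2 h (-0.32 ± 0.08, adjusted p = 0.0131), the only call of the 10, beside 5.07% of all genes (2.19% higher, 2.88% lower). That call was lost without MB468 0 h replicate 2 (adjusted p = 0.0504) or 3 (0.0538) and with libraries thinned to the smallest (-0.29), where UHRF1 was called (0.29), and it turned in sign with spike-in scaling (0.05, adjusted p = 0.838), where UHRF1 was called too (0.59). The spike-in scaling moved the median of all genes in MB468 at 2 h to -0.42, and there TET2 (-0.01) and MBD4 (-0.16) were not called, and 7 genes were called lower, which were DNMT1 (-0.38), UHRF1 (-0.66), DNMT3A (-0.48), TET1 (-0.48), TET3 (-0.46), TDG (-0.37) and MBD2 (-0.38).

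**Figure D2:**
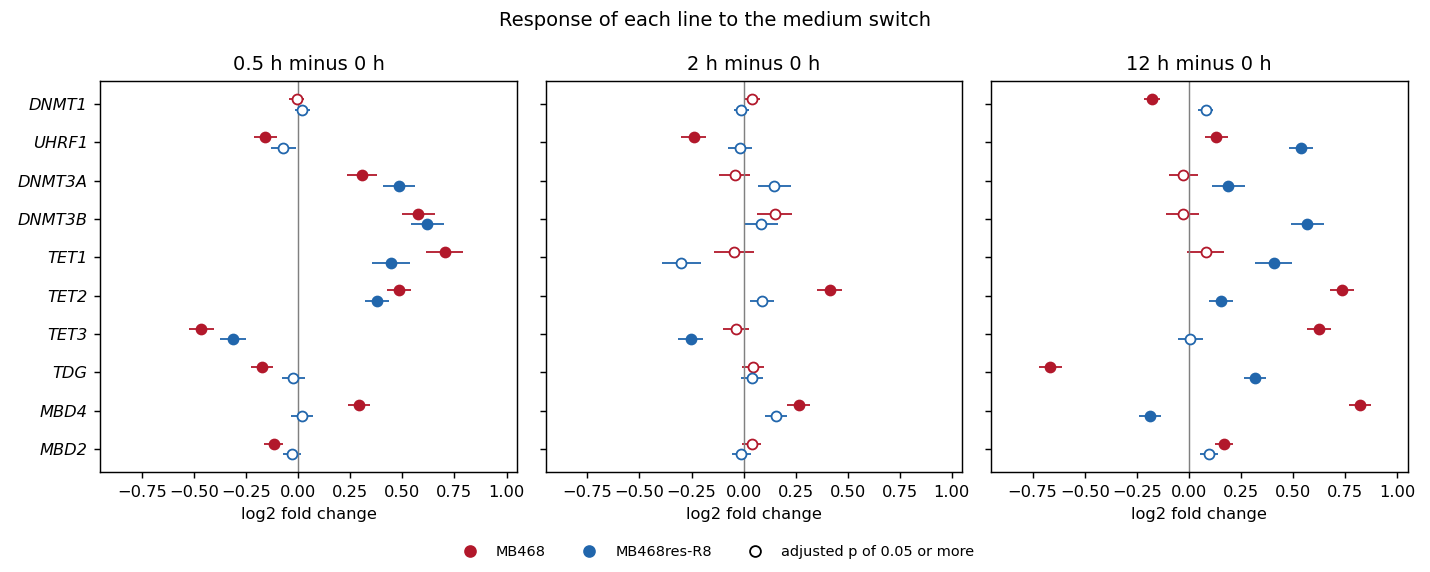
Log2 fold change against 0 h of the same line (x axis) for each gene (y axis) at 0.5, 2 and 12 h, with bars of 1 SE, n = 3 libraries per group, MB468 in red and MB468res-R8 in blue, and open circles where the adjusted p was 0.05 or more. The lines point the same way at 0.5 h for DNMT3A, DNMT3B, TET1, TET2 and TET3, and opposite ways at 12 h for TDG (-0.67 and 0.32) and MBD4 (0.82 and -0.19).

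The 12 h libraries ask how the lines differ after 12 h in Met-Hcy+ medium, which lacks Met and holds Hcy. The glycosylase genes TDG and MBD4 moved in opposite directions within each line and between the lines. MBD4 read 65.2, 64.8 and 65.5 CPM at 0 h and 116, 115 and 115 CPM at 12 h in MB468, a log2 change of 0.82 ± 0.05 (adjusted p = 2.05e-17). In MB468res-R8 it read 81.0, 80.9 and 69.4 CPM at 0 h and 65.1, 68.9 and 69.8 CPM at 12 h. The MB468 groups lay far apart while the MB468res-R8 groups overlapped, and the change in MB468res-R8 was -0.19 ± 0.05 (adjusted p = 0.00260), no longer called without its 0 h replicate 1 (-0.13, adjusted p = 0.0669) or with spike-in scaling (-0.16, adjusted p = 0.356), and larger with an offset for GC content and length (-0.29). TDG read 64.3, 66.3 and 65.0 CPM at 0 h and 40.6, 42.8 and 40.3 CPM at 12 h in MB468, a change of -0.67 ± 0.05 (adjusted p = 3.31e-14). In MB468res-R8 TDG read 55.2, 52.6 and 57.5 CPM at 0 h and 67.5, 70.2 and 68.0 CPM at 12 h, a change of 0.32 ± 0.05 (adjusted p = 2.79e-06). Over the alternatives other than spike-in scaling that change ran from 0.16 to 0.35 and stayed called. No library of 12 h fell within the range of 0 h for TDG in either line. The difference between the responses, MB468res-R8 minus MB468, was 0.98 ± 0.08 for TDG (adjusted p = 2.91e-14) and -1.01 ± 0.07 for MBD4 (adjusted p = 8.33e-15), and MBD4 was the only 1 of the 10 to pass a 2-fold difference. Both differences stayed called in the spike-in scaling, at 1.23 for TDG and -0.74 for MBD4.

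The ratio of MBD4 to TDG RPKM within a library does not depend on how libraries are scaled. In MB468 it was 1.42, 1.47 and 1.48 at 0 h and 3.92, 4.14 and 4.17 at 12 h. In MB468res-R8 it was 1.76, 2.14 and 2.24 at 0 h and 1.40, 1.43 and 1.50 at 12 h. The ratio therefore rose in MB468 by 1.48 on the log2 scale and fell by 0.50 in MB468res-R8, with no overlap between 0 and 12 h in either line. An exact permutation test of 3 against 3 libraries (two-sided) cannot go below 0.1 and gave 0.1 for both. The summed RPKM of the pair was 32.8 ± 0.2 at 0 h and 42.8 ± 0.3 at 12 h in MB468 and 34.3 ± 1.6 and 34.3 ± 0.9 in MB468res-R8 (SD, n = 3).

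**Figure D3:**
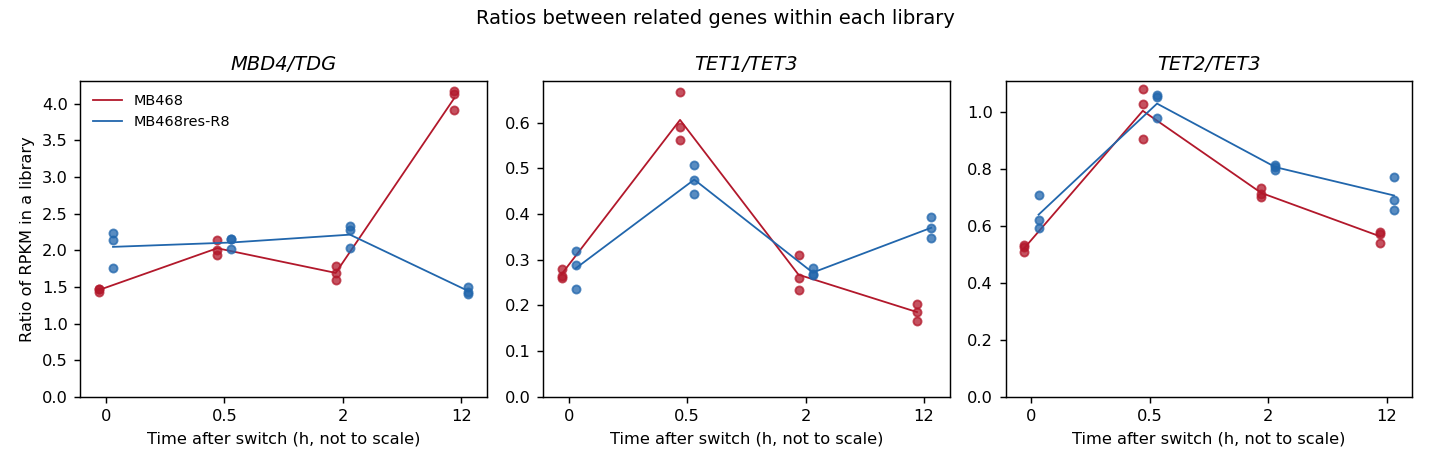
Ratios of RPKM between related genes within each library (y axis, from 0) against time after the medium switch (x axis, steps not to scale), with 1 point per library, lines through the group means, MB468 in red and MB468res-R8 in blue. The MBD4 to TDG ratio reaches 3.92 to 4.17 in MB468 at 12 h against 1.40 to 1.50 in MB468res-R8, and the TET1 and TET2 to TET3 ratios peak at 0.5 h in both lines.

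Among the oxidases, TET2 and TET3 rose in MB468 at 12 h and TET1 rose in MB468res-R8. TET3 read 64.3, 57.4 and 58.0 CPM at 0 h and 95.04, 92.7 and 89.7 CPM at 12 h in MB468 (0.62 ± 0.06, adjusted p = 1.19e-12). In MB468res-R8 TET3 read 61.4, 62.4 and 55.4 CPM at 0 h and 63.6, 56.6 and 59.8 CPM at 12 h (0.01 ± 0.06, adjusted p = 0.937, 95% interval -0.11 to 0.13). There it was called higher with the offset for GC content and length (adjusted p = 0.0433). Its highest value over the alternatives other than spike-in scaling was 0.12. The lines did not overlap at 12 h and the responses differed by -0.62 ± 0.08 (adjusted p = 2.99e-08), from -0.68 to -0.46 over the same alternatives. TET2 rose in MB468 by 0.73 ± 0.06 (adjusted p = 9.84e-15) and less in MB468res-R8 (0.15 ± 0.06, adjusted p = 0.0215), a difference of -0.58 ± 0.08 (adjusted p = 7.77e-08). The call of TET2 in MB468res-R8 was lost without its 0 h replicate 2 (adjusted p = 0.0955) or its 12 h replicate 2 (0.0945). It was also lost with spike-in scaling (0.18, adjusted p = 0.302), at a threshold of 0.01 and with the offset for GC content and length. TET1 was at 0.08 ± 0.09 in MB468 and rose by 0.41 ± 0.09 in MB468res-R8 (adjusted p = 0.000134), to 17.4, 16.5 and 15.5 CPM. The difference of the TET1 responses, 0.33 ± 0.13 (adjusted p = 0.0257), was not called without MB468 0 h replicate 1 (0.0664), MB468 12 h replicate 1 (0.0708) or MB468res-R8 0 h replicate 2 (0.111). Scaled to the spike-ins, the rises of TET2 (0.50) and TET3 (0.39) in MB468 stayed called, and their differences between the lines did not (-0.32, adjusted p = 0.173, and -0.36, adjusted p = 0.109). The summed RPKM of the TET genes went from 8.28 ± 0.51 to 12.5 ± 0.3 in MB468, and in MB468res-R8 it went from 8.84 ± 0.19 to 9.62 ± 0.29 (SD, n = 3). TET3 made 55.9% of that sum in MB468 at 0 h, 38.4% at 0.5 h and 57.2% at 12 h, and 52.2%, 40.0% and 48.2% in MB468res-R8.

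**Figure D4:**
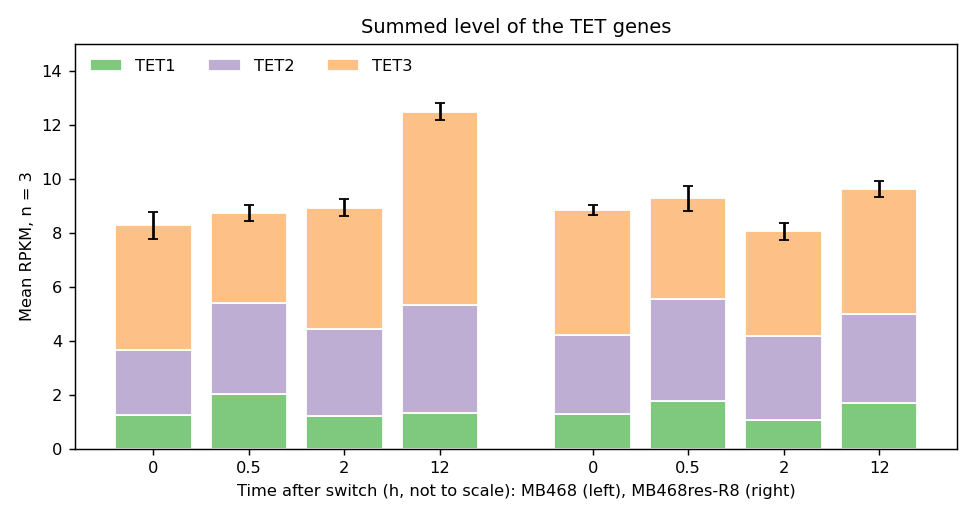
Mean RPKM of TET1, TET2 and TET3 stacked per group (y axis, from 0), with bars of 1 SD of the sum over 3 libraries and the 4 times of MB468 on the left and of MB468res-R8 on the right. The MB468 group of 12 h is highest at 12.5 RPKM, and at 0.5 h the sum is near that of 0 h while the TET3 share is smaller in both lines.

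The methyltransferase genes parted as well. DNMT1 was lower in MB468 at 12 h (-0.18 ± 0.04, adjusted p = 4.45e-05), with 908, 920 and 953 CPM against 1017 to 1066 CPM at 0 h. In MB468res-R8 DNMT1 was at 0.08 ± 0.04 (adjusted p = 0.0516), with 1248, 1130 and 1182 CPM, and it was called higher without MB468res-R8 0 h replicate 1 (adjusted p = 0.0368) or 12 h replicate 2 (0.0133) or 3 (0.0276), with DESeq2 size factors, the DESeq2 Wald test and thinned libraries, and with an offset for GC content and length, which gave 0.24 (adjusted p = 1.65e-10). The responses differed by 0.26 ± 0.05 (adjusted p = 4.28e-05). DNMT3B read 14.1, 14.5 and 15.6 CPM at 12 h in MB468, within the spread of 0 h (-0.03 ± 0.08), and 23.7, 25.8 and 23.5 CPM in MB468res-R8, above all of 0 h (0.57 ± 0.08, adjusted p = 5.44e-08). The responses differed by 0.60 ± 0.11 (adjusted p = 1.68e-05). DNMT3A, lower in MB468res-R8 before the switch, was still lower at 12 h (-0.54 ± 0.07, adjusted p = 1.70e-08). Its change within MB468 was -0.03 ± 0.07 and within MB468res-R8 0.19 ± 0.08 (adjusted p = 0.0340), with overlapping groups, and the latter call was lost without 0 h replicate 1 (0.117) or 3 (0.127) or 12 h replicate 1 (0.107) or 2 (0.0568). The difference of the DNMT3A responses, 0.22 ± 0.11 (adjusted p = 0.0775), was called without MB468 0 h replicate 2 (0.0256), MB468res-R8 0 h replicate 2 (0.0186) or MB468res-R8 12 h replicate 3 (0.0192), with DESeq2 size factors, the DESeq2 Wald test, spike-in scaling (0.47, adjusted p = 0.0482) and the offset for GC content and length (0.38).

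UHRF1 rose in MB468res-R8 by 0.54 ± 0.06 (adjusted p = 9.49e-11), from 51.5 to 58.7 CPM up to 72.6 to 85.4 CPM. In MB468 it was at 0.13 ± 0.05 (adjusted p = 0.0314), a call lost in 5 of the 6 fits that left out 1 library (all but MB468 0 h replicate 2, adjusted p = 0.0564 to 0.259), with DESeq2 size factors, the DESeq2 Wald test, at least 10 counts in every library and thinned libraries (0.03, adjusted p = 0.695), and reversed in the spike-in scaling (-0.10). The responses differed by 0.41 ± 0.08 (adjusted p = 2.85e-05), and at 12 h the levels of the lines overlapped (0.07 ± 0.05, adjusted p = 0.224, and called at 0.0299 without MB468res-R8 12 h replicate 2 and at 0.20, adjusted p = 0.000255, with the offset for GC content and length, where MBD2 was called too, at 0.10). Between 2 and 12 h UHRF1 rose in both lines, by 0.37 ± 0.06 in MB468 and 0.56 ± 0.06 in MB468res-R8. MBD2, the NuRD-linked reader, was at 0.17 ± 0.04 in MB468 (adjusted p = 0.000780) and at 0.10 ± 0.04 in MB468res-R8 (adjusted p = 0.0521), and the difference of -0.07 ± 0.06 had a 95% interval from -0.20 to 0.05. In the spike-in scaling MBD2 turned to -0.07 in MB468. The MBD2 value in MB468res-R8 was called without its 0 h replicate 1 (adjusted p = 0.0223) or its 12 h replicate 1 (0.0227) or 3 (0.0475).

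At 12 h MB468 had 7 calls among the 10 genes, beside 70.8% of all genes tested, with 5 higher (36.1%) and 2 lower (34.7%). MB468res-R8 also had 7, beside 61.3%, with 6 higher (30.2%) and 1 lower (31.1%). The responses of the lines differed for 8 genes, beside 56.5% of all genes, with 5 responses higher (26.2%) and 3 lower (30.3%) in MB468res-R8. The levels of the lines at 12 h differed for 8, beside 73.1%, with 4 higher (33.9%) and 4 lower (39.2%) in MB468res-R8. From 2 to 12 h MB468 had 7 calls, beside 69.7%, with 5 higher (34.6%) and 2 lower (35.1%), and MB468res-R8 had 8, beside 62.5%, with 7 higher (30.7%) and 1 lower (31.8%). So large a share of all genes was called at 12 h that these counts are not read as particular to the 10 genes. The median absolute log2 difference of the responses was 0.49 over the 10 genes and 0.41 over all genes tested. In the contrast of 12 h with 0 h it was 0.17 against 0.44 in MB468 and 0.19 against 0.33 in MB468res-R8.

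Genes that work with the 10 were counted from lists chosen with earlier results of these data known. All counts over lists are on the TMM scale and were not repeated with spike-in scaling, which moved the median of all genes from 0.01 to -0.20 in MB468 at 0.5 h, from 0.01 to -0.23 in MB468 at 12 h and from -0.05 to 0.20 for the difference at 12 h. The shares of all genes called at 12 h were 36.1% higher and 34.7% lower in MB468, 30.2% and 31.1% in MB468res-R8, and 26.2% and 30.3% for the difference. Of 9 partners of maintenance methylation, 2 were higher and 5 lower in MB468 at 12 h (median -0.30, all genes 0.01) and 4 higher and 1 lower in MB468res-R8 (median 0.07, all genes -0.02). In MB468 UHRF2, a relative of UHRF1, changed most (1.18 ± 0.07), followed by PCNA, the replication clamp that holds DNMT1 at the fork (-0.81 ± 0.05). CDCA7, which brings the remodeler HELLS to hemimethylated DNA, fell by 0.64 in MB468 and rose by 0.26 in MB468res-R8. Of 8 tested genes around de novo methylation, 5 were higher and 1 lower in MB468 (median 0.46) and 7 higher in MB468res-R8 (median 0.42). NSD1, a histone methyltransferase whose mark recruits DNMT3A, rose by 1.19 ± 0.04 in MB468 and by 0.42 ± 0.04 in MB468res-R8.

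Of 8 other readers of methylated DNA, 4 were higher in MB468 and none lower, while 2 were higher and 4 lower in MB468res-R8. The shares of all genes were 36.1% higher and 34.7% lower in MB468 and 30.2% and 31.1% in MB468res-R8. For 7 of the 8 readers the response was lower in MB468res-R8 (30.3% of all genes) and for none higher (26.2%), with a median difference of -0.38 against -0.05 over all genes. ZBTB38, a zinc finger protein that binds methylated CpG, went from 153 ± 3.04 to 337 ± 7.46 CPM in MB468, while in MB468res-R8 it went from 288 ± 11.4 to 134 ± 5.63 CPM (SD, n = 3), log2 changes of 1.14 and -1.11. Of 12 genes around base excision and active demethylation, 6 were higher and 5 lower in MB468 and 5 higher and 5 lower in MB468res-R8. GADD45B, a stress gene with a proposed part in TDG-dependent demethylation, went from 77.3 ± 6.14 to 301 ± 9.47 CPM in MB468, while in MB468res-R8 it went from 96.9 ± 4.19 to 39.9 ± 0.60 CPM (SD, n = 3). GADD45A likewise rose in MB468 (1.19 ± 0.08) and fell in MB468res-R8 (-1.03 ± 0.08).

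Of 8 tested TET cofactors and partners, 2 were higher and 3 lower in MB468 and 6 higher and 2 lower in MB468res-R8. The shares of all genes were again 36.1% higher and 34.7% lower in MB468 and 30.2% and 31.1% in MB468res-R8. IDH2 and IDH1, which make the 2-oxoglutarate that TET enzymes consume, both fell in MB468 (-1.20 ± 0.05 and -0.91 ± 0.04) and in MB468res-R8 (-0.41 ± 0.05 and -0.72 ± 0.04). Among the 6 higher genes in MB468res-R8, WT1 went from 6.46 ± 0.67 to 17.0 ± 1.04 CPM (SD, n = 3). OGT there went from 85.3 ± 5.57 to 126 ± 3.37 CPM. Of 8 genes of S-adenosylmethionine supply, 4 were higher and 4 lower in MB468 and 6 higher and 1 lower in MB468res-R8. MAT2A, which makes S-adenosylmethionine from Met, rose by 1.98 ± 0.05 in MB468 and by 0.64 ± 0.05 in MB468res-R8, and the responses differed by -1.34 ± 0.07 (adjusted p = 3.48e-19).

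The cell cycle lists moved with the 12 h results too. Over all genes, 36.1% were higher and 34.7% lower in MB468 and 30.2% and 31.1% in MB468res-R8. For the difference of the responses the shares were 26.2% higher and 30.3% lower in MB468res-R8. Of 22 S phase genes, 2 were higher and 15 lower in MB468 and 8 higher and 5 lower in MB468res-R8, and the response was higher in MB468res-R8 for 19 and lower for 3. Their summed level was 3018 to 3119 CPM at 0 h and 2573 to 2630 CPM at 12 h in MB468, and 2648 to 2720 CPM and 2755 to 2801 CPM in MB468res-R8. Of the 14 G2 and mitosis genes, 8 were higher and 4 lower in MB468, and 14 higher in MB468res-R8, where their sum went from 2435 to 2576 CPM up to 4299 to 4404 CPM. In MB468 it went to 3286 to 3311 CPM. No gene of either list was at 0 in all libraries. DNMT1, UHRF1, DNMT3B, TET1 and TDG also had the higher response in MB468res-R8. MBD4 (-1.01), TET3 (-0.62) and TET2 (-0.58) had the lower response there. The part of cell cycle composition in these differences was not tested.

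The genes whose log2 CPM went most like each of the 10 were sought among 6390 well-expressed genes (6391 for DNMT3A, DNMT3B and TET1) over the 24 libraries, as a description, since all genes share the libraries, their depth and the lines they come from. DNMT1 was nearest to PARP1 (Pearson r = 0.95), the poly(ADP-ribose) polymerase, and to HK1 and GALNS. UHRF1 was nearest to SRRT (0.96), RPUSD4 and PGAM5, and DNMT3A to N4BP2L2 (0.96), TBC1D4 and ATG2B. DNMT3B was nearest to SATB1 (0.94), BUB1 (0.94), a kinase of the spindle checkpoint, and NCAPD2, a condensin subunit. TET1 was nearest to ZYG11B (0.92), KIF11 (0.88), a mitotic kinesin, and EIF4A2. TET2 was nearest to SHOC2 (0.92), B3GNT2 and SRGAP2, and TET3 to DDX42 (0.94), ZNF592 and REXO1. TDG was nearest to NUP188 (0.95), DDX1 and RPL6, MBD2 to GNG12 (0.92), ANXA1 and PSMG3, and MBD4 to BAMBI (0.92), SNX18 and UFL1. Between the 10 genes themselves, the strongest relations by Pearson r were a negative one of TDG with MBD4 (r = -0.83) and a positive one of DNMT3B with TET1 (r = 0.78). By Spearman rho the strongest negative relations were DNMT3A with MBD2 (-0.70) and DNMT1 with DNMT3A (-0.663). The strongest positive one was DNMT1 with DNMT3B (0.657), so the order depends on the measure.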

How the data were processed

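RNA from both lines at 4 times was sequenced as poly(A)-selected, unstranded single-end libraries with ERCC spike-ins. Per the labels and the study's methods, the authors aligned reads with HISAT2 to GRCh38 plus the spike-ins and deposited raw counts per gene from featureCounts. A deposited matrix of normalized values was not used here. The deposited DESeq2 tables hold the authors' fold changes, standard errors, statistics and p-values, and none of these was used. Samples were grouped by the line and time in their labels.

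From the counts, edgeR 4.0.16 (R 4.3.3) was run with TMM scaling, filterByExpr (minimum count 10) and robust quasi-likelihood tests on 8 group means. Its 13 contrasts were adjusted by Benjamini-Hochberg over 14741 genes with a threshold of 0.05, and the SE is the log2 change over the root of F. Steps were tested on simulated data. RPKM used all exons of a gene in GENCODE and TMM library sizes. The named genes are the 10 by symbol, the 3 genes most like each, and for each list the largest changes among those called. The members, lists and tests were chosen with earlier results of these data known. Alternatives were other scalings, filters, fits (a DESeq2 1.42.0 Wald test among them) and thresholds, thinning, and leaving out each library. Their effect is given at the end. No libraries were identical.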

Additional observations from a re-analysis of the deposited data

Results flagged for a closer look

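For 10 results the response to the switch differed between the lines by the test of that difference (edgeR, MB468res-R8 minus MB468, log2). At 0.5 h this was MBD4 (-0.27, adjusted p = 0.0357) and at 2 h TET2 (-0.32, adjusted p = 0.0131), each near the threshold. At 12 h the response was higher in MB468res-R8 for TDG (0.98), DNMT3B (0.60), UHRF1 (0.41), TET1 (0.33) and DNMT1 (0.26) and lower for MBD4 (-1.01), TET3 (-0.62) and TET2 (-0.58), beside 56.5% of all genes tested whose responses differed at that time.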

How the results depend on the processing

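Scaling to the spike-in totals changed most. The number of the 10 genes called went from 7 to 4 between the lines at 0 h, from 9 to 5 in MB468 at 0.5 h, from 3 to 7 at 2 h, from 1 to 0 in MB468res-R8 at 2 h, from 7 to 4 at 12 h, from 8 to 5 between 2 and 12 h, and from 1 to 0 for the difference of the responses at 0.5 h. Of the values called in at least 1 of the fits, those that turned in sign were, between the lines at 0 h, DNMT1 (-0.21), TET2 (-0.030), MBD2 (-0.18) and MBD4 (-0.070), in MB468 at 2 h DNMT1 (-0.38), TET2 (-0.0066), TDG (-0.37), MBD2 (-0.38) and MBD4 (-0.16), in MB468 at 12 h UHRF1 (-0.10) and MBD2 (-0.070), and for the difference at 2 h TET2 (0.051). The median of all genes moved with it, to -0.42 in MB468 at 2 h, and the share of calls that were higher moved from 49.4% to 14.98% between the lines at 0 h, in MB468 from 51.8% to 13.96% at 0.5 h, from 54.3% to 2.52% at 2 h and from 51.0% to 30% at 12 h, and for the difference from 41.4% to 79.2%, 43.2% to 93.0% and 46.3% to 69.9% at 0.5, 2 and 12 h and, in MB468 between 2 and 12 h, from 49.6% to 65.4%. Over all genes the calls went from 5000 to 3287 in MB468 at 0.5 h, from 2410 to 9511 at 2 h, from 4967 to 2023 in MB468res-R8 at 0.5 h, from 644 to 180 at 2 h, from 9036 to 5887 at 12 h, and from 428 to 101 for the difference at 0.5 h. At a threshold of 0.01 there were 1580 calls in MB468 at 2 h, 392 in MB468res-R8 at 2 h, and 232 and 431 for the difference at 0.5 and 2 h (428 and 747 at 0.05). No other alternative turned a called value in sign, the library left out included.

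In MB468res-R8 at 2 h, 2 genes were called with at least 10 counts in every library (TET1 gained) and 2 with an offset for GC content and length (MBD4 gained), an alternative chosen after seeing the data. The difference at 0.5 h had 0 calls at a threshold of 0.01 and 0 with only the groups compared, and the difference at 2 h had 0 at 0.01. Leaving out 1 library gave 5 to 7 calls between the lines at 0 h, 6 to 9, 3 to 3 and 6 to 7 in MB468 at 0.5, 2 and 12 h, 5 to 5, 0 to 2 and 6 to 9 in MB468res-R8, 7 to 7 and 7 to 8 between 2 and 12 h in MB468 and MB468res-R8, 0 to 1, 0 to 1 and 7 to 9 for the differences, and 8 to 9 between the lines at 12 h. Over all genes, MB468res-R8 at 2 h had 348 calls without its 2 h replicate 2. From 2 to 12 h, MBD2 was lost in MB468 without 12 h replicate 3 (adjusted p = 0.0957), where DNMT3B was gained (0.0266), and in MB468res-R8 DNMT1 was lost without 2 h replicate 1 (0.0698) or 12 h replicate 1 (0.0743) and MBD2 without 2 h replicate 2 (0.225) or 12 h replicate 2 (0.0658).

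With the replicate number as a block, 129 of 130 values kept their call and MBD2 in MB468 at 0.5 h lost it (-0.12, adjusted p = 0.0516). The numbers were not taken as pairing the libraries, since no comparison had all 3 same-numbered pairs correlated over 0.1 in their deviations from the group means.

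With the longest transcript as length, levels were 151 RPKM for DNMT1, 32.8 for MBD4, 18.3 for MBD2 and for TDG, 14.7 for UHRF1, 5.30 for TET2, 4.89 for TET3, 4.35 for DNMT3B and 2.84 for DNMT3A. Of the 3 most alike genes, Spearman's rho kept 0 for DNMT1, TET2, TDG, MBD2 and MBD4 and 1 for DNMT3A, DNMT3B and TET3, and means of the 8 groups kept 0 for DNMT1, TET3 and TDG and 1 for DNMT3B, TET1 and MBD2.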

Other observations

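Of 29 germline genes that promoter methylation keeps silent in most somatic tissues, 6 passed the filter on low counts, and none of the others exceeded 0.711 CPM in any library. The VCX genes passed that filter only through MB468res-R8, where they are high, so no count over the list is given. VCX3B, of a family of near-identical X-linked genes between which reads may be shared, had a mean of 0.07 CPM in MB468 and 68.9 ± 8.02 CPM in MB468res-R8 (SD, n = 3), where its group means over the 4 times ran from 55.2 to 73.0 CPM. VCX had means of 0.02 and 12.1 ± 2.23 CPM, and VCX2 had no count in any MB468 library and 4.20 ± 0.41 CPM in MB468res-R8. MAGEA6 (0.94 ± 0.08, edgeR adjusted p = 1.05e-12) and MAGEA3 (0.14 ± 0.05, adjusted p = 0.0109) differed less. MAGEC1, which also passed the filter, lay the other way at a low level. It was at 0.53 ± 0.05 CPM in MB468 and 0.13 ± 0.14 CPM in MB468res-R8 at 0 h (SD, n = 3). At 12 h it was at 2.66 ± 0.30 and 0.09 ± 0.06 CPM. DNA methylation at these genes was not measured.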
